A study of Saccharomyces cerevisiae with 12 samples.

Results

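The 35 genes described here encode the transcription machinery of RNA polymerases I and III in budding yeast, Saccharomyces cerevisiae. They were chosen by name and not by a cut on measured values, but with earlier results of these data known. The list holds 7 subunits found only in RNA polymerase I (Pol I), 10 found only in RNA polymerase III (Pol III), 2 shared by these enzymes, 7 initiation factors of Pol I, 6 subunits of TFIIIC, 2 subunits of TFIIIB and MAF1, the repressor of Pol III. Systematic names are given where a gene is described. Each of the 35 had 1 probe set on the array, out of 5449 named genes, and each passed the filter that left 5345 genes to be tested.

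Gene expression was measured in total RNA on 12 Affymetrix arrays, 3 in each of 4 groups. The groups were a gcn5 mutant with Congo Red, the gcn5 mutant without it, wild type with Congo Red and wild type without it. Both strains have the BY4741 background, a laboratory haploid of mating type a that carries deletions of several marker genes, and the labels do not name the gcn5 allele. Congo Red is a dye that attaches to cell wall polysaccharides and interferes with wall assembly. It was added at 30 µg/ml for 3 h to one share of an exponential YPD culture while the rest grew on untreated. GCN5 encodes a histone acetyltransferase that works within the coactivator complexes SAGA and ADA. The submitters call the 3 arrays of a group biological samples, and p-values here measure the spread between those samples.

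Pol I makes a single product, the precursor of the large ribosomal RNAs, and Pol III makes 5S ribosomal RNA, the transfer RNAs and other short RNAs. Each enzyme is a large complex with its own catalytic subunits, a stalk, and built-in subunits that do the work of separate initiation or elongation factors in the Pol II system. At the ribosomal DNA, the upstream activating factor and the core factor bind the promoter and Rrn3 brings in the polymerase. At Pol III genes, TFIIIC binds within the gene or its promoter and places TFIIIB, which recruits the enzyme. Maf1 shuts off Pol III in poor conditions, through its phosphorylation and its place in the cell. In yeast, genes of ribosome production, many of these subunits among them, are known to be turned down together under stress.

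Array medians lay close together, at log2 8.98 to 9.05. GCN5 read 3.02 to 3.61 on the mutant's Congo Red arrays and 3.36 to 4.08 on its untreated arrays, against 8.20 to 8.30 on the wild-type Congo Red arrays and 8.13 to 8.33 on the untreated ones. URA3 and MET17, deleted in BY4741, read below 4 on all 12 arrays. Of the other marker genes looked at, LEU2 read 3.93 to 5.29 and HIS3 read 9.24 to 10.08 over the 12 arrays. All 7 a-specific mating genes had lower levels in the mutant, with groups that did not overlap and median differences of -1.92 in Congo Red and -1.90 untreated. In limma 3 of the 7 passed in Congo Red and 4 untreated, and 7 did in both comparisons without the arrays numbered 3, described next. The arrays numbered 3 stood apart. Their deviations from the group mean had an SD over genes of 0.31 and 0.29 in the mutant (Congo Red, untreated) and 0.21 and 0.23 in wild type, against 0.15 to 0.21 on the other 8 arrays, and their mean level of the a-specific genes was the lowest in each group. The main counts below are therefore also given without these arrays.

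In wild type Congo Red lowered polymerase subunit genes of both enzymes, and 0 of the 35 genes rose. At an adjusted p under 0.05 in limma, 12 of 35 members fell in wild type and 0 rose, against a background of 3.91% of all genes tested that fell and 5.33% that rose, 9.24% in all. The 12 were RPA190, RPA49, RPA43, RPA34 and RPA12 of Pol I, the shared subunit RPC40, RPC82, RPC37, RPC31 and RPC25 of Pol III, and the Pol I factors RRN5 and RRN7. In the gcn5 mutant 0 of 35 members passed, where 1.16% of all genes passed, 0.0748% in the lower direction and 1.09% in the higher one. An unadjusted p under 0.05 was found there for 9 of 35 members and for 433 of the 5345 genes. The median log2 change of the members was -0.12 in the mutant, beside -0.03 for all genes tested, and -0.33 in wild type, beside -0.02 for all genes tested. Negative changes were seen in 28 of 35 members in the mutant and in 31 of 35 in wild type.

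The falls were small, and counts and medians differed between the roles, with no test made between them. In wild type 0 of 35 members reached a 2-fold change, which 98 of the 5345 genes did, and called members differed 1.26-fold to 1.75-fold. In limma 10 of the 19 polymerase subunits and 2 of the 7 Pol I factors fell. Of the 9 genes for TFIIIC, TFIIIB and MAF1 0 passed, where 9.24% of all genes did. At an unadjusted p under 0.05 there were 0 of these 9 and 1149 of the 5345 genes. The median change in wild type was -0.42 for the subunits, -0.33 for the Pol I factors and -0.06 for TFIIIC, TFIIIB and MAF1. RNA of whole cultures was measured, so fewer cells with a transcript and less of it per cell cannot be told apart.

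**Figure D1:**
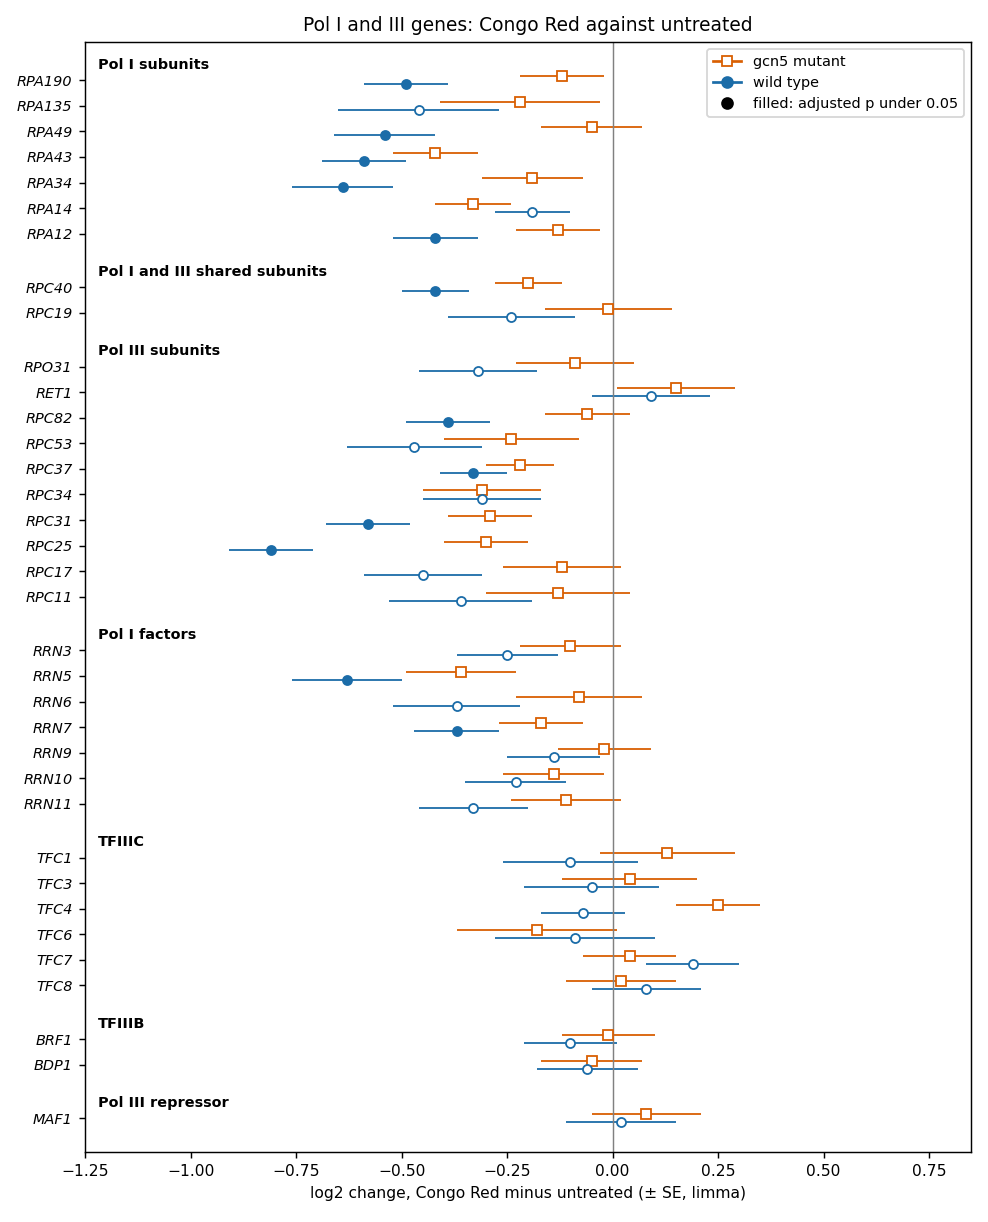
Log2 change of the 35 genes in Congo Red against untreated, with limma's standard error, for the gcn5 mutant (squares) and wild type (circles); filled symbols passed at an adjusted p under 0.05. The filled symbols are the 12 wild-type falls in subunits and Pol I factors. Changes of TFIIIC, TFIIIB and MAF1 lie between -0.18 and 0.25 in the mutant and between -0.10 and 0.19 in wild type.

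Treated and untreated arrays of equal number varied together, as parts of a divided culture would. A second fit took the culture as a block, assuming that equal numbers mark the same culture, which the labels do not state. In that fit 18 of 35 members fell in wild type, where 11.5% of all genes did, and the 6 added members were RPA135, RPC19, RPC53, RPC34, RPC17 and RPC11, all of them subunits. With the block 16 of the 19 subunits fell. In the mutant the block added RPA43 alone, against 1.16% of all genes. Within pairs of equal number, 14 of 35 members were lower in all 3 pairs of the mutant, where 27.2% of all genes were, and 25 of 35 were lower in all 3 pairs of wild type, where 30.0% of all genes were.

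**Figure D2:**
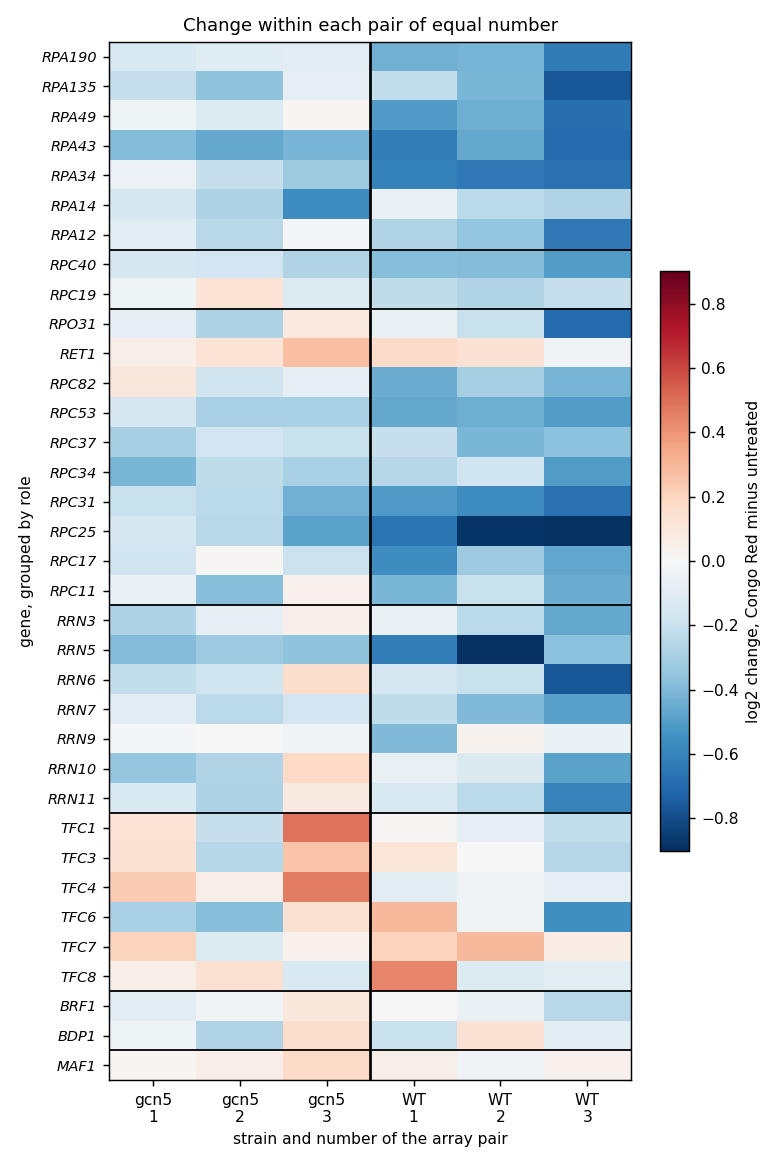
Log2 change in Congo Red within each pair of arrays of equal number, for the gcn5 mutant (3 left columns) and wild type (3 right columns), with 1 row per gene and black lines between roles; blue is lower in Congo Red. The wild-type columns are blue through most polymerase subunits. Over all 35 genes, 25 were lower in all 3 wild-type pairs, where 30.0% of all genes tested were.

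The number of members called in wild type rested in part on the arrays numbered 3. It was 7 without untreated wild-type array 3 and 7 to 12 over the 12 fits that each left out 1 array. Without all 4 arrays numbered 3, 6 members passed, where 126 of the 5345 genes fell. They were RPA190, RPA43, RPA34, RPC31, RPC25 and RRN5, which are 3 of the 7 Pol I subunits, 2 of the 10 Pol III subunits and 1 of the 7 Pol I factors. The median change of the members without these arrays was -0.17 in the mutant and -0.22 in wild type. RPA190, RPA43, RPA34, RPC40, RPC31, RPC25 and RRN5 passed in each of the 12 fits. Without untreated wild-type array 3 the adjusted p was 0.0843 for RPA49, 0.0992 for RPA12, 0.144 for RPC82, 0.1 for RPC37 and 0.168 for RRN7. Other single arrays also ended calls: Congo Red wild-type array 1 for RPA49, RPC82 and RRN7, Congo Red arrays 2 and 3 and untreated array 1 of wild type for RPA12, RPC82, RPC37 and RRN7, and untreated wild-type array 2 for RPC82, RPC37 and RRN7. Mutant arrays did so for RPC82 (untreated arrays 1 and 2) and RRN7 (untreated array 2, Congo Red arrays 1 and 2). The direction stayed negative in each of these fits.

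Among the 7 subunits found only in Pol I, 5 fell in wild type and 6 did with the culture block. RPA190 (YOR341W) encodes the largest subunit, which forms the active site with RPA135 (YPR010C). Its log2 level on arrays 1, 2 and 3 of the mutant was 11.22, 11.31 and 11.37 in Congo Red, against 11.36, 11.42 and 11.47 untreated. In wild type it was 11.11, 11.11 and 11.21 in Congo Red, against 11.53, 11.53 and 11.84 untreated. The wild-type groups did not overlap, and those of the mutant did by a narrow margin. RPA190 changed by -0.12 ± 0.10 (SE) in the mutant (adjusted p = 0.907) and fell by 0.49 ± 0.10 in wild type (adjusted p = 0.0112). RPA135, the second largest subunit, read 11.00, 11.15 and 11.61 in Congo Red, against 11.22, 11.51 and 11.69 untreated in the mutant. Its wild-type values were 10.94, 11.13 and 10.94 in Congo Red, against 11.16, 11.54 and 11.70 untreated. The wild-type groups again stood apart, but array 3 was far above array 1 untreated, and the change of -0.46 ± 0.19 missed the threshold (adjusted p = 0.17). With the culture block it passed (adjusted p = 0.0158).

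RPA49 (YNL248C) and RPA34 (YJL148W) encode a pair of subunits that bind each other and act like built-in initiation and elongation factors. RPA49 read 10.30, 10.46 and 10.64 in Congo Red, against 10.35, 10.58 and 10.62 untreated in the mutant. Wild-type arrays gave 9.84, 10.05 and 9.99 in Congo Red, against 10.34, 10.49 and 10.67 untreated. The mutant's groups lay over each other, while every wild-type Congo Red array was below every untreated one. RPA49 fell by 0.54 ± 0.12 in wild type (adjusted p = 0.0188), 1.46-fold, and its change in the mutant was -0.05 ± 0.12 (adjusted p = 0.985). RPA34 read 11.15, 10.92 and 10.79 in Congo Red, against 11.20, 11.13 and 11.11 untreated in the mutant. Its wild-type levels were 10.74, 10.51 and 10.79 in Congo Red, against 11.36, 11.15 and 11.45 untreated. The wild-type pairs moved by nearly the same amount, -0.61, -0.64 and -0.67. RPA34 fell by 0.64 ± 0.12 in wild type (adjusted p = 0.00724), and its change in the mutant was -0.19 ± 0.12 (adjusted p = 0.795).

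RPA43 (YOR340C) and RPA14 (YDR156W) form the stalk of Pol I, and RPA43 is the subunit that meets Rrn3. RPA43 read 9.50, 9.49 and 9.73 in Congo Red, against 9.89, 9.95 and 10.15 untreated in the mutant. In wild type the levels were 9.24, 9.31 and 9.29 in Congo Red, against 9.86, 9.77 and 9.98 untreated. The groups were separate in both strains. RPA43 fell by 0.59 ± 0.10 in wild type (adjusted p = 0.00525). In the mutant the change was -0.42 ± 0.10 (adjusted p = 0.114), and with the culture block it passed as well (adjusted p = 0.016). Its pairs gave -0.39, -0.46 and -0.42 in the mutant and -0.62, -0.46 and -0.69 in wild type. RPA14 was the one Pol I subunit with the more negative change in the mutant, -0.33 ± 0.09 (adjusted p = 0.184), against -0.19 ± 0.09 in wild type (adjusted p = 0.255).

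RPA12 (YJR063W), a small subunit that helps the enzyme cut back its transcript, read 10.02, 10.07 and 10.19 in Congo Red, against 10.13, 10.32 and 10.21 untreated in the mutant. Wild type had 9.93, 9.79 and 9.80 in Congo Red, against 10.21, 10.14 and 10.43 untreated. The mutant's groups overlapped, and those of wild type did not. RPA12 fell by 0.42 ± 0.10 in wild type (adjusted p = 0.0237), with a change of -0.13 ± 0.10 in the mutant (adjusted p = 0.894). All 7 Pol I subunits had groups that did not overlap in wild type. Over the 35 members 7 were separate and lower in the mutant, where 7.95% of all genes were, and 19 were in wild type, where 14.8% of all genes were.

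RPC40 (YPR110C) and RPC19 (YNL113W) encode a pair of subunits that sit in both Pol I and Pol III and nucleate their assembly. RPC40 read 10.97, 11.01 and 11.00 in Congo Red, against 11.11, 11.18 and 11.26 untreated in the mutant. The wild-type values were 10.74, 10.89 and 10.81 in Congo Red, against 11.12, 11.28 and 11.31 untreated. Both strains had separate groups, with the larger gap in wild type. RPC40 fell by 0.42 ± 0.08 in wild type (adjusted p = 0.00997), and its change in the mutant was -0.20 ± 0.08 (adjusted p = 0.592). RPC19 read 10.84, 10.86 and 10.31 in Congo Red, against 10.88, 10.74 and 10.44 untreated in the mutant. Its wild-type levels were 10.48, 10.41 and 10.59 in Congo Red, against 10.72, 10.69 and 10.80 untreated. Array 3 was the lowest of both mutant groups, and the mutant's change was -0.01 ± 0.15 (adjusted p = 0.993). The wild-type change was -0.24 ± 0.15 (adjusted p = 0.434), and it passed with the culture block (adjusted p = 0.0473).

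**Figure D3:**
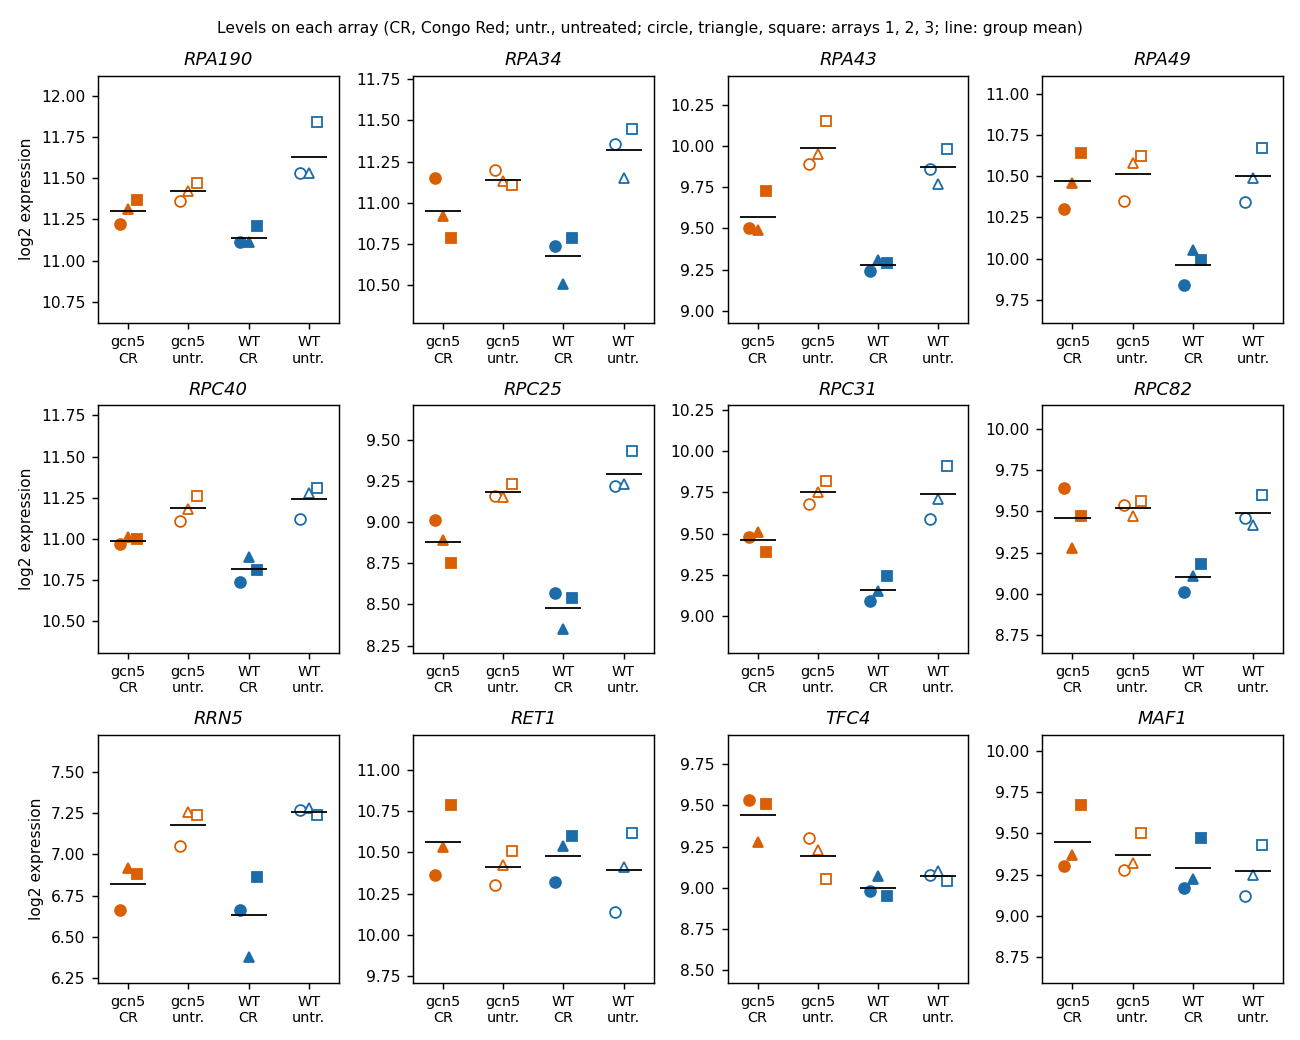
Log2 level of 12 of the genes on each array (circle, triangle and square for arrays 1, 2 and 3; filled symbols for Congo Red; lines for group means), with the gcn5 mutant left and wild type right in each panel. In RPA190, RPA34, RPA43, RPA49, RPC40, RPC25, RPC31, RPC82 and RRN5 every wild-type Congo Red array lies below every untreated one, and in RET1 and MAF1 the groups overlap.

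Among the 10 subunits found only in Pol III, 4 fell in wild type and 8 did with the culture block. The exceptions under the block were the catalytic pair. RPO31 (YOR116C), the largest subunit, read 9.47, 9.39 and 9.77 in Congo Red, against 9.55, 9.68 and 9.69 untreated in the mutant. On wild-type arrays it read 9.38, 9.55 and 9.21 in Congo Red, against 9.45, 9.75 and 9.90 untreated. The wild-type groups overlapped, and the pair numbered 3 moved by -0.69, against -0.07 and -0.20 in the other pairs. Its change was -0.09 ± 0.14 in the mutant (adjusted p = 0.966) and -0.32 ± 0.14 in wild type (adjusted p = 0.218), and it did not pass with the culture block (adjusted p = 0.0968). RET1 (YOR207C), the second largest subunit, read 10.36, 10.53 and 10.79 in Congo Red, against 10.30, 10.42 and 10.51 untreated in the mutant. Wild type had 10.32, 10.54 and 10.60 in Congo Red, against 10.14, 10.41 and 10.62 untreated. The groups overlapped in both strains. RET1 was the one subunit of the 19 with a positive change in wild type, 0.09 ± 0.14 (adjusted p = 0.801), and in the mutant the change was 0.15 ± 0.14 (adjusted p = 0.924). Its interval in wild type ran from -0.23 to 0.41, so a fall as large as that of RPA190 lies outside it.

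RPC82 (YPR190C), RPC34 (YNR003C) and RPC31 (YNL151C) encode a trio of subunits needed for initiation by Pol III. RPC82 read 9.64, 9.28 and 9.47 in Congo Red, against 9.54, 9.47 and 9.56 untreated in the mutant. Wild-type arrays gave 9.01, 9.11 and 9.18 in Congo Red, against 9.46, 9.42 and 9.60 untreated. Mutant array 1 in Congo Red was the highest of that strain, and the wild-type groups were separate. RPC82 fell by 0.39 ± 0.10 in wild type (adjusted p = 0.0373), and its change in the mutant was -0.06 ± 0.10 (adjusted p = 0.971). RPC31 read 9.48, 9.51 and 9.39 in Congo Red, against 9.68, 9.75 and 9.82 untreated in the mutant. Its wild-type levels were 9.09, 9.15 and 9.24 in Congo Red, against 9.59, 9.71 and 9.91 untreated. Neither strain's groups overlapped. RPC31 fell by 0.58 ± 0.10 in wild type (adjusted p = 0.00414), with a change of -0.29 ± 0.10 in the mutant (adjusted p = 0.364). RPC34, which contacts TFIIIB, read 8.84, 8.93 and 9.16 in Congo Red, against 9.25, 9.16 and 9.45 untreated in the mutant. In wild type the levels were 8.82, 8.75 and 8.91 in Congo Red, against 9.08, 8.93 and 9.40 untreated. The estimated change was the same in both strains, -0.31 ± 0.14 in the mutant (adjusted p = 0.599) and -0.31 ± 0.14 in wild type (adjusted p = 0.21), where it passed with the culture block (adjusted p = 0.0272).

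RPC25 (YKL144C) and RPC17 (YJL011C) form the stalk of Pol III. RPC25 read 9.01, 8.89 and 8.75 in Congo Red, against 9.16, 9.15 and 9.23 untreated in the mutant. The wild-type values were 8.57, 8.35 and 8.54 in Congo Red, against 9.22, 9.23 and 9.43 untreated. Both strains had separate groups, and the 3 wild-type Congo Red arrays were the lowest of the 12. RPC25 had the largest fall of the 35 members, 0.81 ± 0.10 in wild type (adjusted p = 7.1e-04) or 1.75-fold, and its change in the mutant was -0.30 ± 0.10 (adjusted p = 0.393). Its partner RPC17 read 8.19, 7.96 and 7.96 in Congo Red, against 8.37, 7.94 and 8.14 untreated in the mutant. Wild type had 8.29, 8.06 and 8.11 in Congo Red, against 8.85, 8.39 and 8.58 untreated. In wild type the lowest untreated array was above the highest Congo Red array, by a narrow margin. The change was -0.12 ± 0.14 in the mutant (adjusted p = 0.959) and -0.45 ± 0.14 in wild type (adjusted p = 0.0761), where it passed with the culture block (adjusted p = 0.00418) and without untreated wild-type array 2 (adjusted p = 0.0479).

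RPC53 (YDL150W) and RPC37 (YKR025W) encode a pair of subunits that serve termination, and RPC11 (YDR045C) trims the transcript and serves termination and re-initiation. RPC53 read 8.87, 8.46 and 8.61 in Congo Red, against 9.02, 8.75 and 8.90 untreated in the mutant. On wild-type arrays it read 8.83, 8.34 and 8.56 in Congo Red, against 9.29, 8.79 and 9.06 untreated. Its wild-type groups overlapped because array 1 was high in both, while the 3 pairs moved by -0.46, -0.44 and -0.50. The wild-type change of -0.47 ± 0.16 thus missed the threshold without the culture block (adjusted p = 0.108) and passed with it (adjusted p = 0.00199), and the mutant's was -0.24 ± 0.16 (adjusted p = 0.83). RPC37 read 8.78, 8.86 and 8.93 in Congo Red, against 9.08, 9.04 and 9.13 untreated in the mutant. Its wild-type levels were 8.79, 8.58 and 8.68 in Congo Red, against 9.00, 9.00 and 9.05 untreated. The groups were separate in both strains. RPC37 fell by 0.33 ± 0.08 in wild type (adjusted p = 0.0282), and its change in the mutant was -0.22 ± 0.08 (adjusted p = 0.486). RPC11 read 10.46, 9.83 and 10.19 in Congo Red, against 10.52, 10.21 and 10.15 untreated in the mutant. Wild-type arrays gave 10.27, 10.29 and 9.96 in Congo Red, against 10.68, 10.49 and 10.41 untreated. The mutant's arrays overlapped widely, and its change was -0.13 ± 0.17 (adjusted p = 0.96). The wild-type change was -0.36 ± 0.17 (adjusted p = 0.253), and it passed with the culture block (adjusted p = 0.0297).

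Among the 7 Pol I initiation factors, 2 fell in wild type, with or without the culture block. RRN5 (YLR141W) encodes a subunit of the upstream activating factor, which binds the ribosomal DNA promoter. It read 6.66, 6.92 and 6.88 in Congo Red, against 7.05, 7.26 and 7.24 untreated in the mutant. In wild type the levels were 6.66, 6.38 and 6.86 in Congo Red, against 7.27, 7.28 and 7.24 untreated. The groups were separate in both strains, and the wild-type Congo Red arrays were spread more widely than the untreated ones. RRN5 fell by 0.63 ± 0.13 in wild type (adjusted p = 0.00998), 1.55-fold, with a change of -0.36 ± 0.13 in the mutant (adjusted p = 0.41). The other upstream activating factor genes on the list were RRN9 (YMR270C), at -0.02 ± 0.11 in the mutant and -0.14 ± 0.11 in wild type, and RRN10 (YBL025W), at -0.14 ± 0.12 in the mutant and -0.23 ± 0.12 in wild type. Neither passed in either strain.

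RRN7 (YJL025W), RRN6 (YBL014C) and RRN11 (YML043C) encode the core factor. RRN7, which resembles TFIIB of the Pol II system, read 7.61, 7.62 and 7.84 in Congo Red, against 7.70, 7.86 and 8.01 untreated in the mutant. The wild-type values were 7.49, 7.39 and 7.43 in Congo Red, against 7.72, 7.80 and 7.92 untreated. The wild-type groups were separate and those of the mutant were not. RRN7 fell by 0.37 ± 0.10 in wild type (adjusted p = 0.0458), with a change of -0.17 ± 0.10 in the mutant (adjusted p = 0.776). RRN6 had the same estimate in wild type, -0.37 ± 0.15 (adjusted p = 0.183), and -0.08 ± 0.15 in the mutant. In wild type pair 3 of RRN6 moved by -0.76, against -0.16 and -0.20 in the others. RRN11 changed by -0.11 ± 0.13 in the mutant (adjusted p = 0.951) and by -0.33 ± 0.13 in wild type (adjusted p = 0.155). RRN3 (YKL125W), the factor that joins Pol I to the core factor, read 8.55, 8.66 and 8.99 in Congo Red, against 8.83, 8.75 and 8.95 untreated in the mutant. Wild type had 8.76, 8.55 and 8.55 in Congo Red, against 8.82, 8.80 and 9.01 untreated. The mutant's groups overlapped, and the wild-type groups were apart by a narrow margin. Its change was -0.10 ± 0.12 in the mutant (adjusted p = 0.957) and -0.25 ± 0.12 in wild type (adjusted p = 0.277), and the culture block did not bring it past the threshold (adjusted p = 0.0949 in wild type).

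None of the TFIIIC and TFIIIB genes passed for Congo Red in either strain in limma. The 6 TFIIIC genes had changes between -0.18 and 0.25 in the mutant and between -0.10 and 0.19 in wild type, and 0 of 6 passed in either strain, with or without the culture block. At an unadjusted p under 0.05 there was 1 of 6 in the mutant, TFC4 (YGR047C), beside 433 of the 5345 genes. In wild type there were 0 of 6, beside 1149 of the 5345 genes. TFC7 (YOR110W) was the one member of the 35 whose wild-type Congo Red arrays were all above the untreated ones, where 13.8% of all genes were, and its change of 0.19 ± 0.11 did not pass (adjusted p = 0.367). TFC3 (YAL001C), which binds the B block of transfer RNA genes, changed by 0.04 ± 0.16 in the mutant and by -0.05 ± 0.16 in wild type. TFC1 (YBR123C), TFC6 (YDR362C) and TFC8 (YPL007C), further TFIIIC subunits, changed by 0.13 ± 0.16, -0.18 ± 0.19 and 0.02 ± 0.13 in the mutant and by -0.10 ± 0.16, -0.09 ± 0.19 and 0.08 ± 0.13 in wild type. The 95% intervals in wild type reached down to -0.46 for TFC1, -0.41 for TFC3 and -0.51 for TFC6. A fall as large as that of RPC37 lies within these, but outside the intervals of TFC4, TFC7 and TFC8. TFC4, the TFIIIC subunit that places TFIIIB, read 9.53, 9.28 and 9.51 in Congo Red, against 9.30, 9.23 and 9.05 untreated in the mutant. On wild-type arrays it read 8.98, 9.07 and 8.95 in Congo Red, against 9.08, 9.10 and 9.04 untreated. The mutant's pairs moved by 0.23, 0.06 and 0.46 and the wild-type pairs by -0.10, -0.03 and -0.09. The change was 0.25 ± 0.10 in the mutant (adjusted p = 0.523) and -0.07 ± 0.10 in wild type (adjusted p = 0.766).

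BRF1 (YGR246C), the TFIIB-like subunit of TFIIIB, read 8.91, 9.00 and 9.22 in Congo Red, against 9.00, 9.03 and 9.12 untreated in the mutant. Its wild-type levels were 8.71, 8.86 and 8.78 in Congo Red, against 8.71, 8.92 and 9.03 untreated. The groups overlapped in both strains. Its change was -0.01 ± 0.11 in the mutant (adjusted p = 0.993) and -0.10 ± 0.11 in wild type (adjusted p = 0.692, 95% interval -0.34 to 0.14). BDP1 (YNL039W), the other TFIIIB subunit on the list, changed by -0.05 ± 0.12 in the mutant and by -0.06 ± 0.12 in wild type (95% interval -0.32 to 0.21). A fall as large as that of RPC37 lies within the wild-type interval of BRF1 and just outside that of BDP1. MAF1 (YDR005C) read 9.30, 9.37 and 9.67 in Congo Red, against 9.28, 9.32 and 9.50 untreated in the mutant. Wild-type arrays gave 9.17, 9.22 and 9.47 in Congo Red, against 9.12, 9.25 and 9.43 untreated. In all 4 groups array 3 was the highest, and treated and untreated levels lay over each other. The change of MAF1 was 0.08 ± 0.13 in the mutant (interval -0.20 to 0.37) and 0.02 ± 0.13 in wild type (interval -0.27 to 0.31, at 95% confidence). These values concern the transcript, and the phosphorylation of Maf1 was not measured.

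The estimated changes in Congo Red were mostly less negative in the mutant than in wild type, but the difference between the strains did not pass for any member. In limma's strain by Congo Red interaction 0 of 35 members passed, where 0.0561% of all genes did. At an unadjusted p under 0.05 there were 6 of 35 members and 310 of the 5345 genes. With the culture block again 0 of 35 members passed, beside 0.561% of all genes. The interaction is the change in the mutant minus that in wild type, and it was positive in 31 of 35 members, against 2479 of 5345 genes. Its median was 0.22 over the members and -0.02 over all genes tested. The largest was that of RPC25, 0.52 ± 0.14 (adjusted p = 0.464). RPA49 had 0.49 ± 0.17 and RPA34 0.45 ± 0.17. Those of RPA43, 0.17 ± 0.15 with an interval from -0.15 to 0.49, and RPC34, 0.00 ± 0.19 with an interval from -0.42 to 0.43, were smaller. Over the 35 members the changes in the mutant and in wild type, which share no arrays, correlated with r = 0.72 and rho = 0.71, as a description across genes that are not independent. Over all 5345 genes r was 0.71 and rho 0.54. The median interaction depended on the arrays numbered 3: it was 0.15 without untreated wild-type array 3, 0.13 without Congo Red mutant array 3, 0.14 without both mutant arrays and 0.08 without all 4. For ribosome assembly genes, read further below, the interaction was positive in 36 of 36 small subunit genes and 45 of 45 large subunit genes. Their medians were 0.27 and 0.32. Of both lists 0 passed without the culture block, and 1 large subunit gene passed with it.

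Without Congo Red the differences between the strains centred on 0 for these transcripts. Comparing the gcn5 mutant with wild type, 0 of 35 members passed in limma, where 9.82% of all genes did in either direction. RPC17 and RRN10, 2 of 35, had an unadjusted p under 0.05, against 1330 of the 5345 genes. The median difference was 0.00 over the members and 0.02 over all genes tested. RPC17 was lower on all 3 mutant arrays than on any wild-type array, with a difference of -0.46 ± 0.14 (adjusted p = 0.07). Arrays of equal number also varied together between the untreated strains, and with the number as a block RPC17 passed (adjusted p = 0.00405), 1 member beside 9.19% of all genes that were lower. RRN10 differed by -0.30 ± 0.12 (adjusted p = 0.171). The interval of RPA190 ran from -0.44 to 0.00 and that of RPA49 from -0.26 to 0.28. Without all 4 arrays numbered 3, again 0 of 35 passed, and the median was 0.04.

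**Figure D4:**
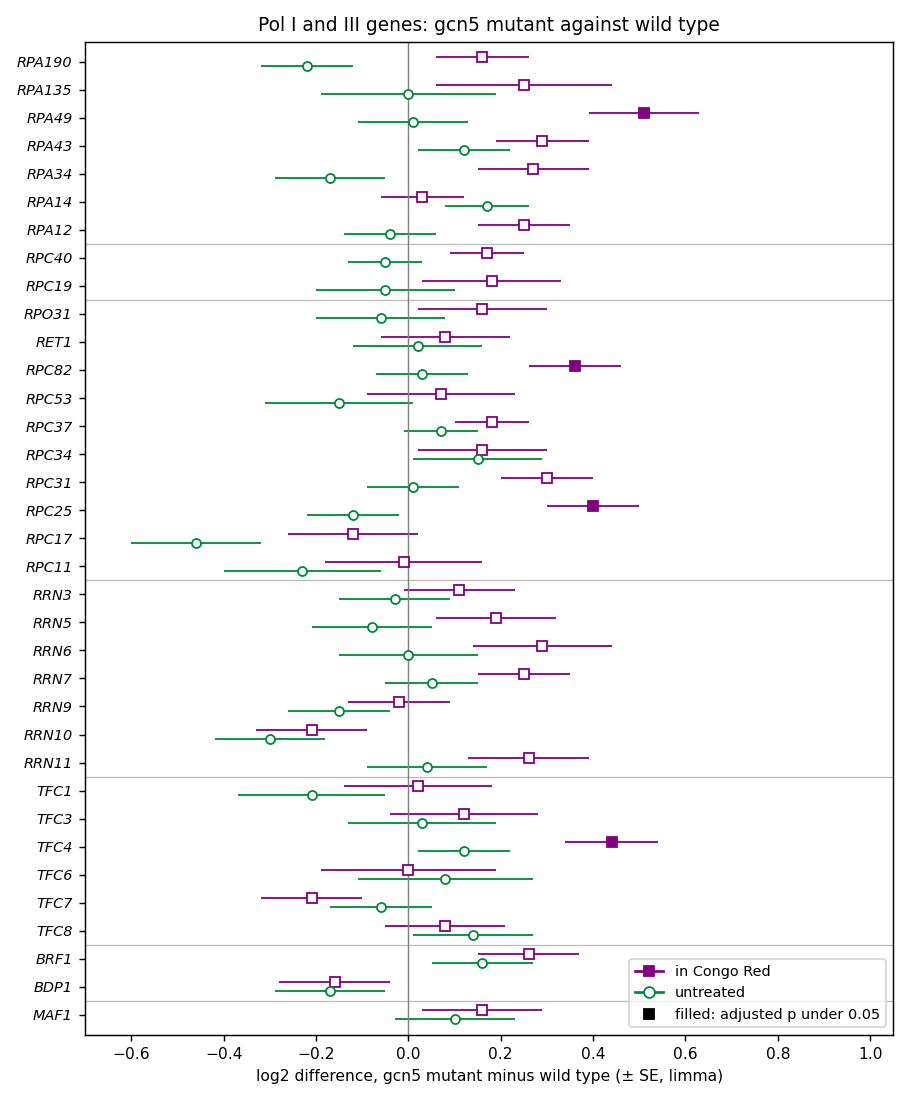
Log2 difference between the gcn5 mutant and wild type for the 35 genes, with limma's standard error, in Congo Red (squares) and untreated (circles); filled symbols passed at an adjusted p under 0.05. RPA49, RPC82, RPC25 and TFC4 are the 4 filled squares, all to the right of 0, and the circles scatter about 0.

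In Congo Red, 4 of 35 members were higher in the mutant than in wild type and 0 were lower, where 4.57% of all genes were higher and 6.40% lower. RPA49 was higher by 0.51 ± 0.12 (adjusted p = 0.0227), TFC4 by 0.44 ± 0.10 (adjusted p = 0.0147), RPC25 by 0.40 ± 0.10 (adjusted p = 0.0282) and RPC82 by 0.36 ± 0.10 (adjusted p = 0.0463). On the array values given above, the mutant's Congo Red arrays lay above the wild type's for each of these 4 genes, and over the members 12 of 35 were separate and higher, where 14.6% of all genes were. The median difference was 0.16, beside 0.00 over all genes tested. Among ribosome assembly genes, read further below, 6 of 36 for the small subunit and 15 of 45 for the large one were higher. Their medians were 0.34 and 0.39, and 0 were lower. This comparison shares the wild-type Congo Red arrays with the Congo Red contrast of wild type, so the same low arrays enter both for RPA49, RPC25 and RPC82. TFC4 differs in that its wild-type change was near 0.

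The 4 calls depended on single arrays. None of the 4 passed when only the 6 Congo Red arrays were fitted or when Congo Red wild-type array 1 was left out. In that last fit the adjusted p was 0.0878 for RPA49, 0.0535 for TFC4, 0.0516 for RPC25 and 0.148 for RPC82. Each of the other 5 Congo Red arrays ended at least 1 of the calls, leaving 1 or 2, and RPC82 was also lost without any 1 of the untreated mutant arrays or untreated wild-type arrays 1 and 2. Without all 4 arrays numbered 3, RPC25, RPC31 and RPC19 were higher and RRN10 was lower in the mutant. Of all 5345 genes, 253 were higher and 546 lower in that fit. RPC25 was thus the one member called both with and without these arrays. The median without them was 0.11. The a-specific genes, which mark mating type and moved with strain, had a mean level of 8.57 to 9.27 on the mutant's Congo Red arrays and 10.15 to 11.50 on the wild-type ones, and their part in these differences was not tested.

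Related genes from lists chosen by function were read beside the members in wild type. Of all 5345 genes, 1149 had an unadjusted p under 0.05 there, and 11.5% were lower with the culture block. Of the 5 subunits shared by Pol I, Pol II and Pol III 0 passed in limma, with 3 at an unadjusted p under 0.05 and 3 lower with the culture block, and their median was -0.32. Of the 7 subunits found only in Pol II 0 passed, with 1 at an unadjusted p under 0.05 and 1 lower with the block, and their median was -0.10. Of 10 further factors of Pol I and Pol III transcription 1 fell, RNT1, the RNase III that cuts the ribosomal RNA precursor, by 0.63 ± 0.10 (adjusted p = 0.00302), and 4 did with the block. Among 13 measured genes of TOR, protein kinase A and casein kinase signalling and among 6 regulators of ribosome production genes, 0 passed in limma, with 1 and 0 at an unadjusted p under 0.05. Their medians were both -0.03.

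Many assembly factors of the ribosome, which work on the ribosomal RNA that Pol I makes, also fell in wild type. In limma 13 of 36 small subunit assembly genes fell and 0 rose, among them RCL1, by 0.50 ± 0.08 (adjusted p = 0.00214), and ENP2, by 0.74 ± 0.11 (adjusted p = 0.00242). Of 45 large subunit assembly genes 30 fell and 0 rose, among them SDA1, by 0.89 ± 0.11 (adjusted p = 5.0e-04), and BRX1, by 0.59 ± 0.08 (adjusted p = 0.00139). With the culture block 33 of the 36 small subunit genes and 40 of the 45 large subunit genes fell. Without all 4 arrays numbered 3 it was 10 of 36 and 19 of 45, beside 126 of all 5345 genes. The medians were -0.48 and -0.49. The 19 polymerase subunits thus had a median of -0.42, between those of the assembly genes and that of the Pol II subunits, and no test was made between lists. In the mutant 0 genes of both assembly lists passed in limma, with medians of -0.19 for the small subunit and -0.18 for the large one. At an unadjusted p under 0.05 there were 4 of the 36 small subunit genes and 3 of the 45 large subunit genes, beside 433 of all 5345 genes. With the culture block 1 small subunit gene, KRR1 (-0.35, adjusted p = 0.0298), and 0 large subunit genes fell in the mutant; KRR1 is named because of that value.

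**Figure D5:**
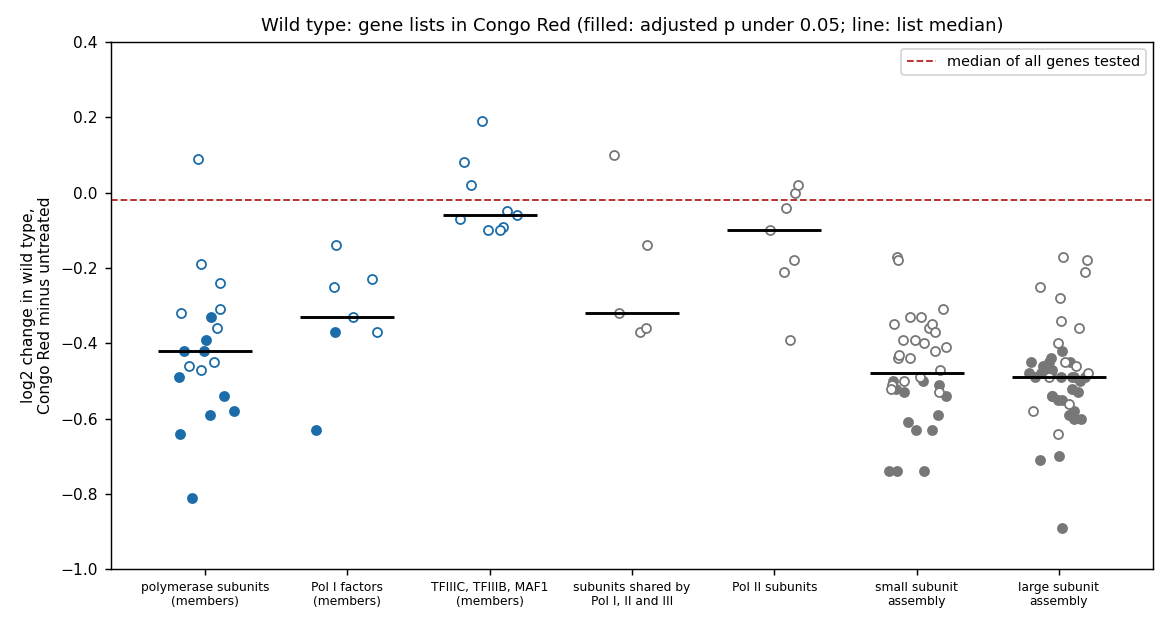
Log2 change in wild type (Congo Red minus untreated) for the genes of 7 lists, 1 point per gene; filled points passed at an adjusted p under 0.05, bars mark list medians and the dashed line the median of all genes tested. The polymerase subunits have a median of -0.42, TFIIIC, TFIIIB and MAF1 one of -0.06, and the assembly lists ones of -0.48 and -0.49.

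Of the 10 further Pol I and III factors, 1 was lower and 1 higher in the mutant than in wild type in Congo Red. Of all genes tested 6.40% were lower and 4.57% higher there. Untreated, 1 of the 10 was lower, where 9.82% of all genes passed in either direction. With 10 genes these counts lie near the shares of all genes. UAF30, a subunit of the upstream activating factor, read 6.27, 6.27 and 6.14 on the mutant's Congo Red arrays and 5.96, 6.42 and 6.40 on its untreated arrays, against 7.09, 6.98 and 6.64 on the wild-type Congo Red arrays and 6.85, 7.00 and 7.14 on the untreated ones. Its groups did not overlap between the strains. The difference, mutant minus wild type, was -0.67 ± 0.15 in Congo Red (adjusted p = 0.0149) and -0.74 ± 0.15 untreated (adjusted p = 0.0112). FOB1, which blocks replication forks in the ribosomal DNA, was higher in the mutant by 0.55 ± 0.16 in Congo Red (adjusted p = 0.0494). That call was lost without both mutant arrays numbered 3 (adjusted p = 0.132) and held without all 4 arrays numbered 3 (adjusted p = 0.0182). The untreated difference of FOB1 was 0.26 ± 0.16 (adjusted p = 0.342).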

How the data were processed

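Total RNA of 12 yeast samples was measured on 12 arrays. The authors deposited 1 log2 value per probe set and array, computed, per the submitters' processing notes, with GCRMA, for which no version is stated in the sources used here. That method normalizes arrays to each other by quantiles, so a shift of all transcripts together would not be seen, and the array number limits the precision. That the scale is log2 follows from the range, 2.45 to 14.34. Groups and numbers came from the sample titles.

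Of 5716 probe sets, 5498 had 1 gene symbol, 218 had none and 0 had several, and 12 symbols were updated through RefSeq's table of R64 genes, a source of names and neighbours only. Where a gene had several probe sets (47 genes), the one highest on average was kept. A gene was tested, as 5345 were, if 3 or more of the 12 arrays exceeded log2 4, with limma 3.58.1 in R 4.3.3 (group means over all 12 arrays, 8 residual degrees of freedom, eBayes, Benjamini-Hochberg adjustment over the 5345 genes, threshold 0.05). The procedure was also run on simulated data in which, unlike the measured data, arrays of equal number did not vary together. The sources name no genome build for the array, so no coordinates are printed, and no sequences were used.

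Between treated and untreated arrays of equal number, deviations from the group means correlated at 0.84, 0.57 and 0.79 in the mutant and at 0.53, 0.74 and 0.67 in wild type. The labels describe a divided culture but do not state that equal numbers mark the same culture. On that assumption the culture was the block of a second fit. The values between the untreated strains were 0.53, 0.39 and 0.44, and the number was the block there. They were 0.33, -0.08 and 0.11 between the strains in Congo Red, so the numbers did not pair these arrays throughout. The number was run as a block there too.

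The members, the lists and the rule for named genes were chosen with earlier results of these data known. Members could all be named, with array values for those called in any comparison, with or without a block, and for MAF1, RRN3, BRF1, RPA190, RPA135, RPO31 and RET1. Of other lists up to 4 called genes with the smallest p could be named. The alternatives were median centring, other filters, a floor, an intensity trend, only the 6 arrays compared, means over probe sets, a replicate block, and leaving out single arrays or the arrays numbered 3.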

Additional observations from a re-analysis of the deposited data

How the results depend on the processing

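Only 3 arrays a group and small changes limit these counts, and depth in the sense of signal over background could not be judged without detection calls. Leaving out the arrays numbered 3 was chosen after seeing the data. Called members kept their direction under every alternative run. With the replicate block (the pairing of equal numbers), the genes passing were 212 for Congo Red in the mutant, 1272 for Congo Red in wild type, 30 for the interaction, 1024 between the untreated strains and 1048 between the strains in Congo Red. The members passing with the block were 1 in the mutant, 18 in wild type, 0 for the interaction, 1 between the untreated strains and, where the numbers do not pair the arrays, 6 between the strains in Congo Red (RPA43 and RPC31 beside the 4). With only the 6 arrays compared, 8 members passed in wild type, where the adjusted p was 0.0689 for RPA12, 0.0588 for RPC82, 0.0824 for RPC37 and 0.059 for RRN7, 15 genes passed in the mutant, and 316 genes and 0 members passed between the strains in Congo Red. An intensity trend gave 6 genes for the interaction and took RRN7 in wild type to an adjusted p of 0.0614. Median centring and the trend each took RPC82 between the strains in Congo Red to an adjusted p of 0.0505. Without both mutant arrays numbered 3, 39 genes passed in the mutant. Without all 4 arrays numbered 3, 13 genes passed for the interaction and 6 members in wild type. Leaving out 1 array at a time gave 17 to 59 genes and 0 members in the mutant, 260 to 572 genes and 7 to 12 members in wild type, 3 to 5 genes and 0 members for the interaction, 265 to 615 genes and 0 members between the untreated strains, and 350 to 616 genes and 0 to 4 members between the strains in Congo Red. Against these stand 62, 494, 3, 525 and 586 genes in the fit without a block. The cause of these shifts was not tested.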

Other observations

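Of the 35 members, 22 have a neighbouring gene that starts on the opposite strand from the same intergenic region, read from the order of genes in the RefSeq table, and 20 of these neighbours were tested. These pairs were looked at after the members' values were seen. RPA190 and RPA43 are each other's neighbour, and both fell in wild type in Congo Red. Further neighbours that fell were those of RPC25, RPC37 and RPC53. RPC53 itself passed only with the culture block (adjusted p = 0.00199). LTV1, which serves export and maturation of the small ribosomal subunit and faces RPC25, fell by 0.69 ± 0.13 (SE, adjusted p = 0.00735 in limma). DBP7, a helicase of large subunit assembly that faces RPC37, fell by 0.55 ± 0.13 (adjusted p = 0.0198). SAS10, a small subunit assembly factor that faces RPC53, fell by 0.63 ± 0.13 (adjusted p = 0.0137). The neighbours that rose face members that did not pass without the culture block, though RPC19 fell with it (adjusted p = 0.0473). PTP2, a phosphatase of stress-activated kinases that faces RET1, rose by 1.41 ± 0.11 (adjusted p = 2.5e-05), and YNL115C, which faces RPC19, rose by 0.66 ± 0.16 (adjusted p = 0.0263). The other 13 tested neighbours did not pass without the block, where 3.91% of all genes fell and 5.33% rose. With the culture as a block, where 614 of the 5345 genes were lower and 658 higher, 3 of these neighbours passed. They were QCR2, which faces RPC82, at 0.45 (adjusted p = 0.0204), NCR1, which faces TFC8, at 0.32 (adjusted p = 0.0167), and CPD1, which faces BRF1, at -0.34 (adjusted p = 0.0325). Without the block, members called beside a neighbour that did not pass were RPA12, RPC40, RPC82 and RRN5.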
